A study of Mus musculus with 6 samples.

Results

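Antisense exonic transcripts are RNAs read from the strand opposite a known gene that overlap at least 1 of its exons. In the deposited isoform table they are the rows with class code x, the code that the assembler's comparison step gives to a new isoform lying across reference exons on the other strand. There were 258 of them among 125793 isoforms, in 201 assembled loci. The table covers 6 neural stem cell cultures from C57/Bl6 mice, 3 labelled vimentin knockout (KO) and 3 labelled wild type (WT). All 6 were grown untreated in serum-free medium with FGF-2 and EGF, which keep neural stem cells dividing and undifferentiated. Total RNA was depleted of ribosomal RNA and made into strand-specific paired libraries by the dUTP method, which is meant to keep the strand of each read. Most unspliced new isoforms in introns or between genes carried no strand, while every spliced new isoform carried one, as given below. Whether the assembly took the strand of an isoform from the reads or from its splice sites was not tested. The labels do not give the allele, the age or sex of the animals, or whether cultures of 1 group came from separate animals, so p-values measure the spread between these cultures, which may be technical.

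Antisense transcription is common in mammalian genomes. It arises where genes converge or diverge, inside genes, and in repeats, and antisense RNAs are often short-lived because the nuclear RNA exosome degrades them. Some antisense RNAs are known to repress or stabilise the RNA of the opposite strand, and paired sense and antisense RNAs can form double-stranded RNA.

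The targeted gene went against the labels. Vim, the intermediate filament gene meant to be removed, had 650, 732 and 624 FPKM (fragments per kilobase and per unit of library depth) in the libraries labelled KO, against 191, 179 and 186 FPKM in those labelled WT. Each direction below is therefore that of the labels, and 0 of the 258 isoforms overlapped Vim. Depth was 20.9 to 26.7 M reads in isoforms per library, estimated from coverage, and 1 FPKM of a 250-base transcript equals 7.10 to 9.05 reads. Of 12 neural stem cell markers found, 11 reached a mean of 1 FPKM, with summed levels of 1143 to 1234 FPKM in the libraries labelled KO and 990 to 1169 FPKM in those labelled WT. No microglial, endothelial, fibroblast or blood marker reached that level. Astrocyte markers, 5 of 5 at 1 FPKM or more, summed to 351 to 416 FPKM in the libraries labelled KO and 128 to 579 FPKM in those labelled WT. Neuronal markers, 2 of 6 at that level, summed to 88.9 to 137 FPKM and 66.2 to 178 FPKM in the same order. Oligodendrocyte markers, 2 of 4 at 1 FPKM or more, summed to 45.1 to 49.9 FPKM in the libraries labelled KO and 91.7 to 94.7 FPKM in those labelled WT. The part of these cell types in the differences below was not tested. Library WT 2 stood apart: 16.0% of its FPKM lay in intergenic, intronic and run-on isoforms, against 3.75 to 5.27% in the other libraries.

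Most of the antisense isoforms were short and spliced. Their median length was 383.5 bases, from 200 to 19670 bases. A single exon was seen in 35 of them, 2 exons in 164, 3 in 49, 4 in 9 and 5 in 1. A gene on the other strand was found for 241, with 177 different genes in all, and 197 of the 241 faced a protein-coding gene. By position, 160 lay inside the span of the sense gene, 38 ran across its end, 37 ran across its start and 6 spanned all of it. The antisense RNA began within 1000 bases of the sense start in 27. In GENCODE M21 (build GRCm38), 219 had bases of an exon of the opposite strand within their span, counted with their introns. By the same count, 18 had exon bases of an annotated gene on their own strand. Whether those bases fall in the exons or the introns of the antisense isoforms was not tested. Unspliced new isoforms of the other classes mostly carried no strand (13466 of 13974 intronic and 11734 of 11950 intergenic ones). No spliced isoform of these classes lacked one. All 35 unspliced antisense isoforms carried a strand, as the class requires. An unspliced isoform without a strand cannot enter the class, so the spliced share above was not read as a trait of antisense RNA.

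A group of 41 isoforms lay wholly within 1 annotated exon of the opposite strand. Of these 21 fell in 3′ UTRs, 2 in 5′ UTRs, 6 in coding sequence, 4 in coding sequence and UTR, and 8 in noncoding exons. The sense transcript that holds the exon is not spliced there. Yet 39 of the 41 were assembled with 2 exons, and MSTRG.5627.1 and MSTRG.24928.2 with 3. The introns of the 39 had a median of 76 bases (20 to 3204 bases), and 17 were under 70 bases. In 12 of the 39, the exon sequence was identical to itself, over a run of 18 to 135 bases, at a shift of exactly the length of the intron. In the other 27 the longest such run was 11 bases. The 12 with long direct repeats lay in 8 genes: Serpine2, Ubb, Gm1821, Klhl24, Arhgap19, Mki67, Zfp266 and Mid1. How single reads were placed over these repeats was not tested. Over all 164 antisense isoforms of 2 exons, 16.5% had an intron under 70 bases, against 7.28% of 206 isoforms of 2 exons that overlap a gene on its own strand in other ways, 15.7% of 217 intronic ones, 1.49% of 269 intergenic ones, 0% of 504 new isoforms sharing a junction with a reference transcript and 0.359% of 11982 reference transcripts.

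Ubb, Zfp266 and Mki67 show this pattern in coding sequence, and the bases around both ends of the antisense intron are given to let the repeat be seen. Ubb encodes ubiquitin as head-to-tail copies of 1 unit, and the antisense intron of MSTRG.7985.1 was 228 bases long, as was that of MSTRG.15225.1 over Gm1821, a locus annotated as noncoding exon. Zfp266 encodes a zinc finger protein, whose fingers repeat in the DNA, and the intron of MSTRG.49546.1 was 84 bases. Mki67 encodes the proliferation marker Ki-67, which contains long internal repeats, and the intron of MSTRG.46073.1 was 3204 bases, with 95.4% identity at that shift. Each line is 60 bases of the antisense strand, 5′ to 3′, from the M21 transcript of the sense gene. The place of each intron was chosen by rule, at a position of its length with GT and AG ends first, then with the longest repeat. As placed, the intron starts after base 30 of the first line of each pair and ends at base 30 of the second. Capitals mark bases identical in both lines of the pair.
Ubb intron start, chr11:62552776-62552835, minus strand: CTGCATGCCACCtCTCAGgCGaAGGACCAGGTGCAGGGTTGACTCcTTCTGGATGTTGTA
Ubb intron end, chr11:62552548-62552607, minus strand: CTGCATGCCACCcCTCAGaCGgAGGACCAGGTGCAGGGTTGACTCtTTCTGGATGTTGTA
Zfp266 intron start, chr9:20499490-20499549, plus strand: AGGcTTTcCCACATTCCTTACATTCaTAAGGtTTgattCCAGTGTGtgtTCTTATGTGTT
Zfp266 intron end, chr9:20499574-20499633, plus strand: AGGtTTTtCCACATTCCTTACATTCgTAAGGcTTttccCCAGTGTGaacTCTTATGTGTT
Mki67 intron start, chr7:135696455-135696514, plus strand: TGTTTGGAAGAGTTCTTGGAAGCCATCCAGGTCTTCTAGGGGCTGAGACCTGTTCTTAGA
Mki67 intron end, chr7:135699659-135699718, plus strand: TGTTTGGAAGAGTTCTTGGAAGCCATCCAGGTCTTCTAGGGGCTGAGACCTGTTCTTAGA

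The 2 windows were identical at 56 of 60 bases in Ubb, 49 of 60 in Zfp266 and 60 of 60 in Mki67. In each case an intron placed at these bases would begin with GT and end with AG, which follows from the choice of position. That choice also favoured long repeats. Positions with ends of GT-AG, GC-AG or AT-AC numbered 3 in Ubb, 13 in Zfp266 and 2 in Mki67. The levels of these isoforms were low and uneven. The antisense isoform over Ubb had 0.245, 0.227 and 5.71 FPKM in the libraries labelled KO and 6.04, 6.08 and 0.283 FPKM in those labelled WT, so 1 library labelled KO and 2 labelled WT were high and the groups overlapped. The antisense isoform over Mki67 was listed at 0 in every library but WT 2, where it had 2.68 FPKM. The one over Zfp266 ran from 0 FPKM in WT 2 to 1.30 FPKM in KO 3. Only 7 of the 41 isoforms within 1 exon had a mean of 1 FPKM or more over the 6 libraries.

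**Figure D1:**
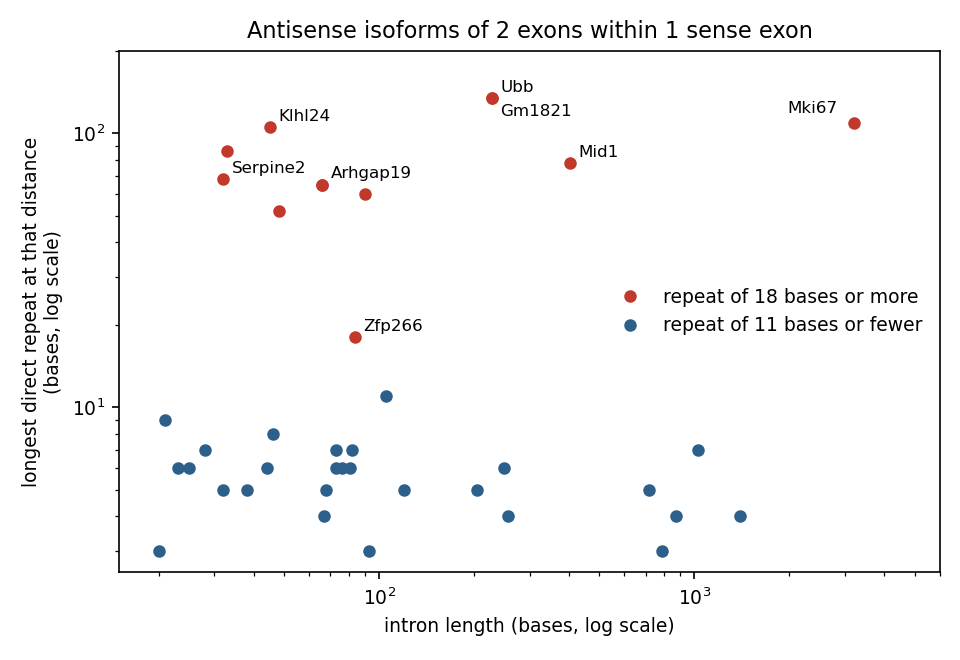
Intron length (bases, log scale) against the longest run of bases repeated at exactly that distance (bases, log scale) for the 39 antisense isoforms of 2 exons within 1 annotated exon of the opposite strand. The 12 points above the gap, in the 8 genes named, have repeats of 18 to 135 bases, and the other 27 have at most 11 bases.

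A second repeat carried the larger of the 2 differences between the groups that passed, and its sequence is shown for that reason. Gm10800 on chromosome 2 and Gm21738 on chromosome 14 are gene models in the mouse annotation that are made of a simple repeated unit, like the satellite DNA found beside mouse centromeres. MSTRG.27606 is antisense to Gm10800 and MSTRG.14794 is antisense to Gm21738. The lines give the plus strand, which is the antisense strand, over 1 exon of each gene (build GRCm38). Capitals mark bases in stretches of 21 that also occur in the other gene.
Gm10800 exon, chr2:98667079-98667228, plus strand: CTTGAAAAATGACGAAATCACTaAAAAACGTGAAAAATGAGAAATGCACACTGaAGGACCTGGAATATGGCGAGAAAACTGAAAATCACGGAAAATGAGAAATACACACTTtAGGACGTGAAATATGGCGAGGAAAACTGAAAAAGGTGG
Gm21738 exon, chr14:19417133-19417366, plus strand: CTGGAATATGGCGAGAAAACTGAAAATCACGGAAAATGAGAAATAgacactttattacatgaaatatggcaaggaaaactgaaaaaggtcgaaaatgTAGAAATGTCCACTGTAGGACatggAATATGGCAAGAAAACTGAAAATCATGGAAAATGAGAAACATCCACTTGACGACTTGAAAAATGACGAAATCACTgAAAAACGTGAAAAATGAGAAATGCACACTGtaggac

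Of the 150 bases of the Gm10800 exon 147 were shared with Gm21738, and 171 of the 234 bases of the Gm21738 exon were shared with Gm10800. Shifted by 234 bases, the Gm21738 transcript matched itself at 62.4% of 447 positions. Reads from such copies cannot be placed with certainty, so the division of reads among them is uncertain.

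The first question was how much antisense RNA each library held. Antisense isoforms made up 0.240, 0.280 and 0.421% of all FPKM in the libraries labelled KO and 0.219, 0.429 and 0.434% in those labelled WT. The groups overlapped, with means of 0.314 ± 0.095% in libraries labelled KO and 0.361 ± 0.123% in libraries labelled WT (SD, n = 3 each), and the two-sided exact permutation test gave p = 0.8, where 0.1 is the smallest p that 3 against 3 libraries allow. The number of antisense isoforms at 1 FPKM or more was 72, 78 and 89 in the libraries labelled KO and 85, 132 and 77 in those labelled WT (exact permutation p = 0.5). WT 2 alone was high in this count, and without it the mean difference, KO minus WT, was -1.33 isoforms in place of -18.3. Summed antisense FPKM was 6.39, 8.11 and 12.8% of the summed FPKM of the sense genes in the libraries labelled KO and 6.84, 15.0 and 12.4% in those labelled WT (exact permutation p = 0.6). None of the 3 measures separated the groups.

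Few isoforms carried most of that RNA. The 8 isoforms with the highest mean held 60.0 to 78.0% of the class in each library, and most of them were high in some libraries and near 0 in others of the same label. MSTRG.8908.3 (chromosome 11, 87422875 to 87426859, minus strand) lies inside Tex14 and crosses the small nuclear RNA gene Rnu1a1, which the table names as its gene. It had 155, 120 and 101 FPKM in the libraries labelled KO and 124, 185 and 521 FPKM in those labelled WT, with WT 3 far above the rest. MSTRG.11001.4 crosses the small nuclear RNA genes Gm23804 and Gm22634 on chromosome 12. It had 209, 191 and 159 FPKM in the libraries labelled KO and 84.9, 84.2 and 299 FPKM in those labelled WT, so WT 3 was again the highest. MSTRG.11005.1, across the nearby small nuclear RNA genes Gm22317 and Gm24305, had 0, 0 and 32.0 FPKM in the libraries labelled KO and 0, 631 and 0 FPKM in those labelled WT. Small nuclear RNA genes have many near-identical copies, so the placing of reads on these loci is uncertain.

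The other high isoforms faced a long noncoding RNA gene and 3 protein-coding genes. MSTRG.1256.1, over the long noncoding RNA gene D230017M19Rik, had 0.693, 0.789 and 367 FPKM in the libraries labelled KO and 0.333, 1.06 and 0.503 FPKM in those labelled WT, so nearly all of it came from KO 3. The sense gene was also uneven, at 33.3, 5.47 and 357 FPKM in the libraries labelled KO and 208, 1.11 and 1.88 FPKM in those labelled WT. MSTRG.22403.1, over the kinase gene Rock1, which controls the actomyosin cytoskeleton, had 0, 99.9 and 87.9 FPKM in the libraries labelled KO and 4.34, 0.848 and 0.275 FPKM in those labelled WT. KO 2 and KO 3 were high and KO 1 was listed at 0, and the adjusted p of the isoform was 0.613 (limma). MSTRG.18101.1, across the start of the tubulin gene Tuba1b, had 6.79, 7.43 and 6.38 FPKM in the libraries labelled KO and 0, 39.3 and 7.53 FPKM in those labelled WT. At the locus across the end of Vash1, a gene for an enzyme that removes tyrosine from tubulin, 2 isoforms were listed. Its unspliced isoform MSTRG.11673.1 had 72.8, 83.1 and 94.8 FPKM in the libraries labelled KO and 10.0, 74.7 and 80.8 FPKM in those labelled WT. The spliced isoform MSTRG.11673.2 was listed at 0 in every library but WT 1, where it had 131 FPKM. Their sum was 72.8, 83.1 and 94.8 FPKM in the libraries labelled KO and 141, 74.7 and 80.8 FPKM in those labelled WT. The sense Vash1 level was 101 to 124 FPKM over the 6 libraries.

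**Figure D2:**
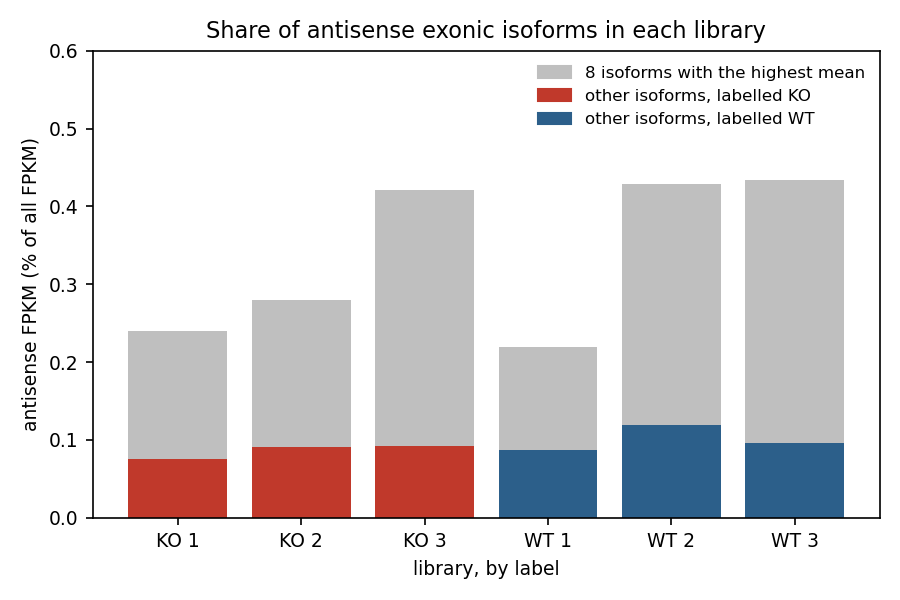
Antisense FPKM as a percent of all FPKM in each library, with the 8 isoforms of highest mean in grey and the other isoforms in colour. The totals run from 0.240 to 0.421% in the libraries labelled KO and from 0.219 to 0.434% in those labelled WT, and the grey part is the larger in every bar.

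Detection also varied. Of the 258 isoforms, 96 were above 0 FPKM in all 6 libraries and 27 were at 1 FPKM or more in all 6. In 42, a single library held all the signal, and that library was WT 2 for 20 of them. A mean of at least 1 FPKM, the limit set for testing, was reached by 82 isoforms, 79 of them spliced and 3 unspliced. Among these 82, 31 differed by 10-fold or more between their highest and lowest library or were listed at 0 in at least 1, while 12 stayed within 2-fold across the 6 libraries.

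The 12 steady isoforms, picked after their values were seen, were at 1.00 to 5.88 FPKM. The highest, MSTRG.9308.1, has 3 exons (chromosome 11, 100935318 to 100958676, plus strand) and runs across the start of Stat3, the transcription factor that drives astrocyte formation downstream of cytokines. Its span also covers 1944 bases of exons of Cavin1, a caveolae gene beside Stat3, more than of any other gene on the opposite strand. It had 5.08, 5.88 and 5.78 FPKM in the libraries labelled KO and 4.85, 4.06 and 4.75 FPKM in those labelled WT. MSTRG.29498.1 lies on the minus strand inside Gnas, an imprinted locus that encodes the stimulatory G protein subunit and is known for antisense transcripts. It had 2.40, 2.98 and 2.41 FPKM in the libraries labelled KO and 2.62, 3.77 and 2.78 FPKM in those labelled WT, while Gnas itself was at 205 to 343 FPKM. MSTRG.48328.1, inside the alanine aminotransferase gene Gpt2, ranged from 1.85 to 2.39 FPKM over the 6 libraries. MSTRG.29443.1 runs across the start of Spo11, which makes meiotic DNA breaks, and at 1.56 to 2.73 FPKM it was above its sense gene in every library (0.511 to 1.12 FPKM). The remaining 8 faced Idua, Gm10130, Gm26936, Gm1976, Ubb, Rfx4, Hnrnpul1 and Sfi1.

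Antisense level followed sense level only loosely. Over 185 loci with a sense gene in the table, the mean log2(FPKM + 1) of antisense and sense correlated with Pearson r = 0.22 and the mean FPKM with a Spearman coefficient of 0.18, which describes loci that share the same 6 libraries and is no test. The median antisense level was 11% of the sense level per kilobase, and antisense exceeded sense in 47 loci. The share of wrong-strand reads in these libraries was not measured here.

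The comparison of the libraries labelled KO with those labelled WT was made for single isoforms and for loci, in limma on log2(FPKM + 1) with Benjamini-Hochberg adjustment over all features of the table. Of 82 antisense isoforms tested, 0 passed an adjusted p of 0.05, against 0.124% of all 30650 isoforms tested (0.0587% higher and 0.0653% lower), so this level called almost nothing anywhere. Estimated reads in limma-voom also called 0. At an unadjusted p under 0.05, 7 of the 82 passed, against 9.83% of all isoforms, and the groups did not overlap in 16, against 18.3%. Of those 16, 10 were lower and 6 higher, against 8.22% and 10.1% of all isoforms. The median log2 fold change was 0.02 over the antisense isoforms and -0.01 over all.

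Summed per locus, 66 of the 201 antisense loci reached a mean of 1 FPKM and were tested beside the genes. The call rate over all 12146 genes and loci was 6.76%, with 3.59% of features higher where the label was KO and 3.17% lower. Of the 66 antisense loci, 2 passed as lower and 0 as higher. At an unadjusted p under 0.05, 8 of the 66 passed, against 24.5% of all. The groups did not overlap in 14, against 33.2%, with 10 lower (16.4% of all features) and 4 higher (16.9%). Their median log2 fold change was -0.09, against -0.02 over all features, and the median standard error was 0.28, against 0.19.

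**Figure D3:**
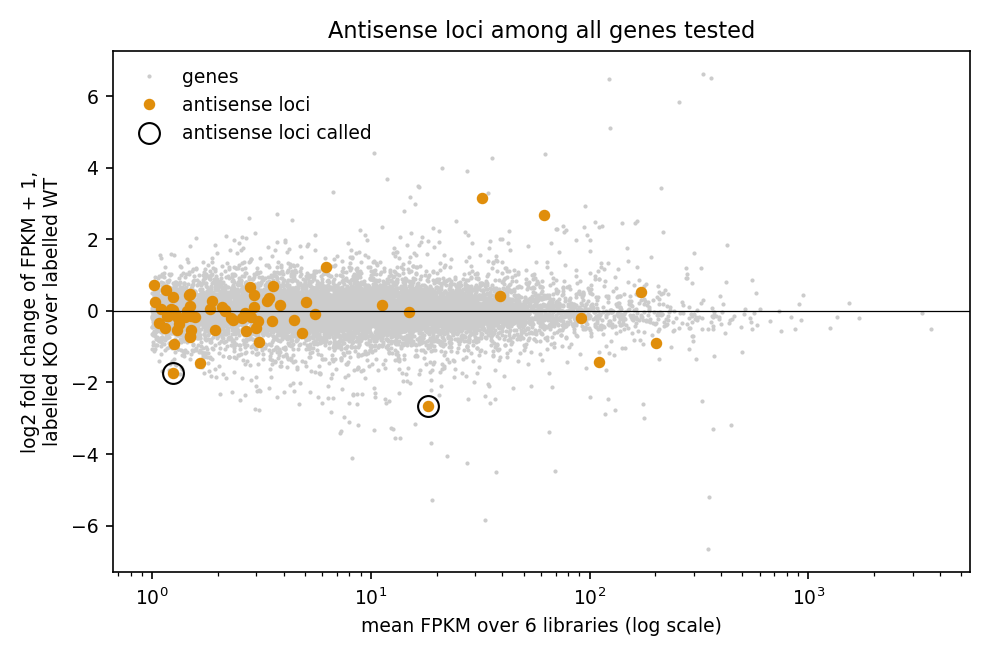
Log2 fold change of FPKM + 1 (libraries labelled KO over those labelled WT) against mean FPKM over the 6 libraries (log scale) for the 12146 genes and antisense loci tested. The 66 antisense loci (orange) lie mostly at low mean FPKM, and the 2 called loci (ringed) are both lower in the libraries labelled KO.

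The called locus with the larger difference was MSTRG.27606, the antisense RNA over Gm10800, whose repeat sequence is printed above (chromosome 2, 98666590 to 98667332, plus strand, 4 isoforms of 2 or 3 exons). It had 3.52, 3.05 and 3.70 FPKM in the libraries labelled KO and 12.7, 24.3 and 62.6 FPKM in those labelled WT. The groups did not overlap, and the libraries labelled WT were spread widely while those labelled KO were close together. The fitted log2 fold change came to -2.67 with an SE of 0.54 (limma, adjusted p = 0.0448). The sense gene moved in the same direction, with 31.2, 25.9 and 41.4 FPKM in the libraries labelled KO and 102, 371 and 490 FPKM in those labelled WT (log2 fold change -3.00, SE 0.60, adjusted p = 0.0428, limma). The adjusted p of the antisense locus was 0.131, 0.138 and 0.125 without KO 1, KO 2 or KO 3, and 0.0900 without WT 2, so the call did not hold in those fits.

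The second called locus was MSTRG.17106 on chromosome 15, a short RNA of 226 bases whose 2 exons lie 305493 bases apart (62762274 to 63067992, minus strand), with the pseudogene Tsg101-ps inside its span. It was listed at 0 in all 3 libraries labelled KO and at 1.20, 3.82 and 2.45 FPKM in those labelled WT, equal to about 7.83, 26.8 and 20.0 reads. In limma the difference passed at an adjusted p of 0.0334, with a fitted log2 fold change of -1.73 and an SE of 0.31, a size that depends on the pseudocount because 1 group is at 0. Tsg101-ps itself stayed under 0.4 FPKM in every library. The adjusted p was 0.110, 0.114 and 0.109 without KO 1, KO 2 or KO 3, and 0.0950 without WT 3. The locus was not tested without WT 2, where its mean was under 1 FPKM. With 0 in every library labelled KO, it reached the limit for testing only through the libraries labelled WT. Its entry to the test thus rested on the group in which it is high.

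A further 3 loci were among the 5 with the smallest p in the lower direction without passing. MSTRG.14794, over Gm21738 (chromosome 14, 19415763 to 19417388, plus strand), had 0.217, 0.406 and 0.490 FPKM in the libraries labelled KO and 1.36, 3.26 and 4.21 FPKM in those labelled WT (log2 fold change -1.45, SE 0.33, adjusted p = 0.0583, limma). MSTRG.20774 lies inside Narfl, which takes part in iron-sulfur cluster assembly (chromosome 17, 25775879 to 25777090, minus strand). It had 0.458, 0.565 and 0.662 FPKM in the libraries labelled KO and 1.90, 2.51 and 1.49 FPKM in those labelled WT (log2 fold change -0.91, SE 0.20, adjusted p = 0.0529, limma). The groups were well apart, while Narfl itself had 7.67, 5.77 and 7.85 FPKM in the libraries labelled KO and 7.49, 8.30 and 8.92 FPKM in those labelled WT. MSTRG.5627, over D10Wsu102e, had 0.609, 1.37 and 0.735 FPKM in the libraries labelled KO and 1.81, 2.42 and 1.99 FPKM in those labelled WT (adjusted p = 0.115, limma). All 3 averaged under 1 FPKM where the label was KO, so they too reached the limit for testing through the libraries labelled WT.

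In the higher direction no locus passed, and the 5 with the smallest p had adjusted p-values of 0.190 to 0.283 in limma. MSTRG.36787 lies inside Tacc3, whose protein stabilises the mitotic spindle (chromosome 5, 33663955 to 33664853, minus strand). It had 1.13, 1.94 and 1.71 FPKM in the libraries labelled KO and 1.06, 0.392 and 0.700 FPKM in those labelled WT (log2 fold change 0.60, SE 0.23, adjusted p = 0.190, limma). Tacc3 itself had 50.8, 48.9 and 45.9 FPKM in the libraries labelled KO and 39.5, 39.7 and 38.3 FPKM in those labelled WT, and missed the threshold as well (adjusted p = 0.0745, limma). MSTRG.5661, a 2-exon RNA of 5693 bases inside Rfx4, a transcription factor gene of the developing brain, had 2.04, 2.10 and 2.35 FPKM in the libraries labelled KO and 1.56, 1.72 and 1.49 FPKM in those labelled WT (adjusted p = 0.283, limma). The 3 others faced Car5a, a mitochondrial carbonic anhydrase, Syt10, a synaptotagmin, and Gm21887. MSTRG.49763 over Car5a averaged 1.54 ± 0.19 FPKM in the libraries labelled KO and 0.947 ± 0.207 FPKM in those labelled WT, with an adjusted p of 0.239 in limma (SD, n = 3 each). MSTRG.17898 over Syt10 averaged 1.87 ± 0.32 FPKM in the libraries labelled KO and 1.11 ± 0.51 FPKM in those labelled WT (SD, n = 3 each; adjusted p = 0.279, limma). MSTRG.36787 and MSTRG.49763 averaged under 1 FPKM where the label was WT, so they reached the limit for testing through the libraries labelled KO.

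**Figure D4:**
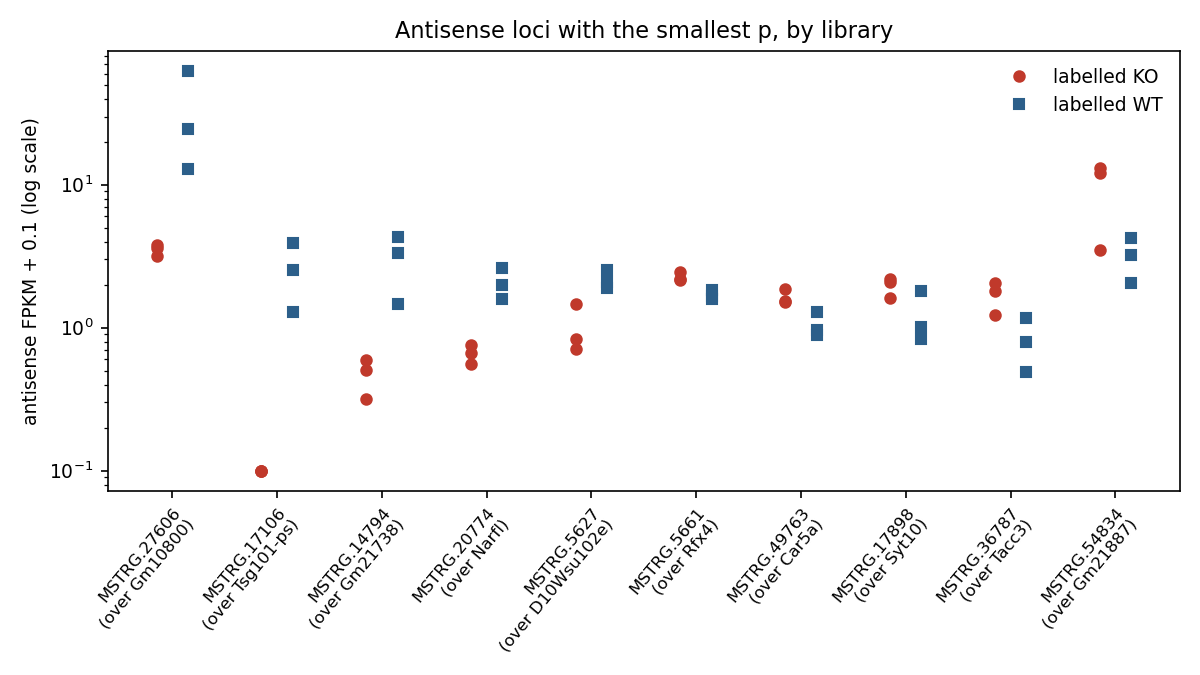
Antisense FPKM + 0.1 (log scale) in each library for the 5 lower and 5 higher loci with the smallest p, ordered by log2 fold change, with libraries labelled KO left of those labelled WT. The groups are apart at the 5 loci on the left, and MSTRG.17106 is listed at 0 in all 3 libraries labelled KO. Of the 5 higher loci, MSTRG.36787, MSTRG.49763 and MSTRG.5661 also have the groups apart, while at MSTRG.17898 and MSTRG.54834 they overlap.

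The isoform fit named some further transcripts, none of which passed. MSTRG.42116.1 lies inside Cd163, a scavenger receptor gene of macrophages (chromosome 6, 124317939 to 124321627, minus strand). It had 3.26, 2.56 and 3.69 FPKM in the libraries labelled KO and 1.40, 1.44 and 2.02 FPKM in those labelled WT (log2 fold change 0.67, SE 0.25, adjusted p = 0.464, limma). MSTRG.16860.2 over Oxr1, an oxidation resistance gene, averaged 2.93 ± 1.48 FPKM in the libraries labelled KO and 1.17 ± 0.90 FPKM in those labelled WT (SD, n = 3 each; adjusted p = 0.566, limma). MSTRG.38113.2 is 1 of 4 isoforms across the end of Idua, the lysosomal enzyme iduronidase, in a locus whose other isoform the table assigns to Fgfrl1. It had 5.72, 3.74 and 3.64 FPKM in the libraries labelled KO and 1.75, 2.42 and 3.62 FPKM in those labelled WT (adjusted p = 0.581, limma). Summed over its 5 isoforms the locus had 16.4, 13.9 and 13.7 FPKM in the libraries labelled KO and 11.0, 17.1 and 18.0 FPKM in those labelled WT, so the groups overlapped.

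The loci with the most isoforms lie at the ends of the sex chromosomes. MSTRG.54899 over Erdr1 on chromosome Y had 15 antisense isoforms and MSTRG.54834 over Gm21887 on chromosome X had 13. The X and Y copies of this region are closely alike, so reads cannot be assigned to 1 of them with certainty. MSTRG.54899 had 43.5, 57.4 and 33.2 FPKM in the libraries labelled KO and 40.2, 36.1 and 23.5 FPKM in those labelled WT. MSTRG.54834 had 3.42, 11.9 and 12.9 FPKM in the libraries labelled KO and 4.13, 1.95 and 3.13 FPKM in those labelled WT, with KO 2 and KO 3 high (adjusted p = 0.201, limma). The 4-exon isoform MSTRG.54899.3 was at 10.1, 0.420 and 14.1 FPKM in the libraries labelled KO and at 0.819, 0.459 and 0.432 FPKM in those labelled WT (adjusted p = 0.529, limma). The other 4-exon isoforms with a mean of at least 1 FPKM, MSTRG.18479.1 over Txndc11 and MSTRG.20590.1 over the pseudogene Gm5224, averaged 2.08 ± 0.62 and 1.34 ± 0.81 FPKM in the libraries labelled KO, against 2.52 ± 0.71 and 2.13 ± 0.58 FPKM in those labelled WT (SD, n = 3 each).

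The sense genes were then set beside their antisense RNAs. Of the 177 sense genes, 129 were tested and 17 passed, with 10 higher and 7 of them lower under the KO label (13.2%, against 6.76% of all features). This count fell to 4 without KO 1, KO 2 or KO 3, to 11 without WT 1 and to 9 without WT 3. Whether the share differs from that of genes of like level was not tested. For 6 of the 17 the antisense locus was tested too, and the antisense RNA passed in 1, Gm10800. Rnf139, a ubiquitin ligase gene of the endoplasmic reticulum, fell to 0.965, 0.767 and 1.43 FPKM in the libraries labelled KO, against 19.4, 19.0 and 20.3 FPKM in those labelled WT (log2 fold change -3.33, SE 0.15, adjusted p = 0.00116, limma). MSTRG.17052, antisense across the end of Rnf139 (chromosome 15, 58900940 to 58904663, minus strand), had 3.70, 3.61 and 4.14 FPKM in the libraries labelled KO and 3.23, 8.28 and 3.79 FPKM in those labelled WT (log2 fold change -0.25, SE 0.31, adjusted p = 0.670, limma). The antisense RNA was thus above the sense RNA in the libraries labelled KO and below it in those labelled WT.

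The calcium-activated potassium channel gene Kcnn2 fell to 4.93, 4.49 and 4.54 FPKM in the libraries labelled KO, against 12.8, 19.8 and 18.2 FPKM in those labelled WT (adjusted p = 0.00799, limma). MSTRG.23103 inside it had 0.522, 1.43 and 1.11 FPKM in the libraries labelled KO and 1.12, 2.88 and 1.95 FPKM in those labelled WT (adjusted p = 0.331, limma). Stat3 fell to 80.6, 78.0 and 80.6 FPKM in the libraries labelled KO, against 121, 117 and 131 FPKM in those labelled WT (log2 fold change -0.62, SE 0.08, adjusted p = 0.0118, limma). Its steady antisense RNA, MSTRG.9308, was slightly higher in each library labelled KO than in any labelled WT but did not pass (log2 fold change 0.25, SE 0.13, adjusted p = 0.298, limma). This RNA was paired with Stat3 by span, although its span covers more exon bases of Cavin1, whose levels were not set beside it. Arhgap19 rose to 23.0, 22.3 and 24.6 FPKM in the libraries labelled KO, against 14.6, 13.3 and 14.6 FPKM in those labelled WT (adjusted p = 0.0128, limma). MSTRG.24928 in its 3′ UTR, where the direct repeats lie, had 6.81, 3.08 and 2.49 FPKM in the libraries labelled KO and 2.47, 3.39 and 2.44 FPKM in those labelled WT (adjusted p = 0.551, limma). The difference between the sense change and the antisense change was not tested for any pair.

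The satellite-like sequence was followed into the other genes that hold it, a set chosen after the values of Gm10800 were seen. Including Gm10800, 13 genes of the M21 annotation shared at least 50 stretches of 21 bases with it. In 11 of the 13, every library labelled KO was below every library labelled WT, as in 16.4% of all features tested, a limit that only 8 of the 13 genes reached. Of the 8 tested, 7 did so, and 2 passed as lower (3.17% of all features), Gm10800 and Gm21738. The median log2 fold change of the 8 was -2.29. Among the 8, Gm10719, Gm11168 and Gm10722 averaged 0.229, 0.302 and 0.951 FPKM in the libraries labelled KO. They reached the limit for testing through the libraries labelled WT, the group in which they are high. Gm21738 had 1.71, 2.87 and 3.21 FPKM in the libraries labelled KO and 7.77, 24.4 and 22.9 FPKM in those labelled WT (log2 fold change -2.30, SE 0.45, adjusted p = 0.0408, limma). The noncoding gene Gm26870 averaged 8.57 FPKM in the libraries labelled KO and 58.2 FPKM in those labelled WT without passing (adjusted p = 0.0710, limma). These genes share reads and are not independent. Leaving out 1 library gave 0 genes passing without KO 1, KO 2, KO 3, WT 2 or WT 3, and 6 without WT 1, which was the lowest of the libraries labelled WT for all 8.

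**Figure D5:**
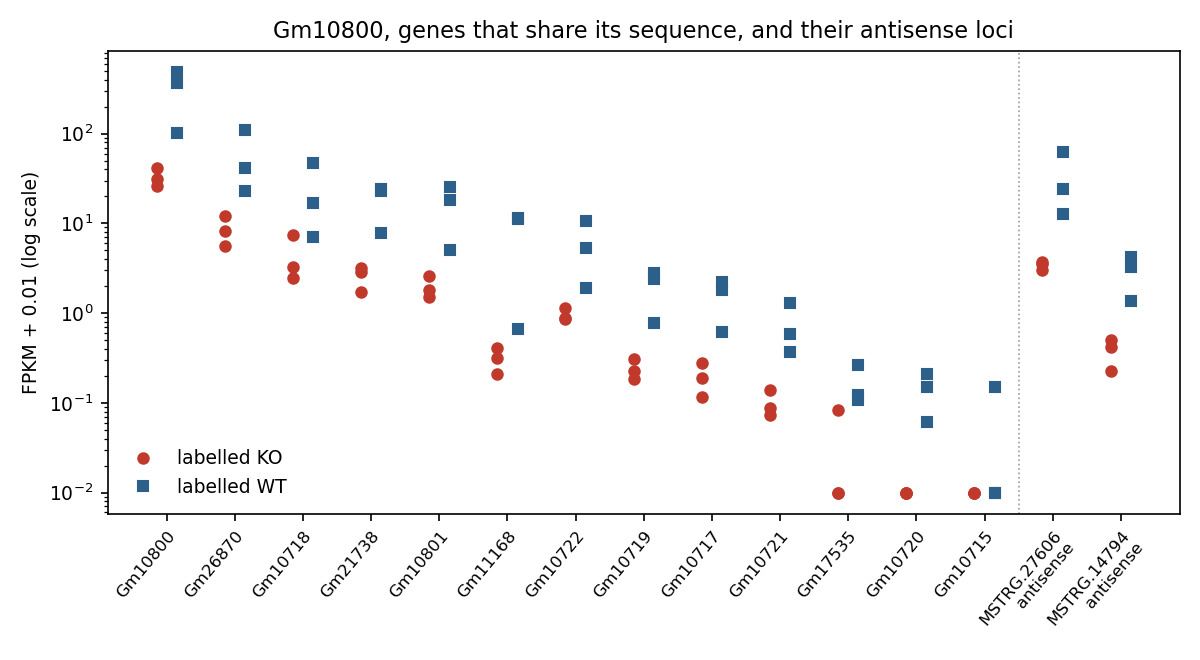
FPKM + 0.01 (log scale) of Gm10800 and the 12 genes sharing its sequence, and of the antisense loci MSTRG.27606 and MSTRG.14794 (right of the dotted line), with libraries labelled KO left of those labelled WT. Values of libraries labelled KO lie below all values of libraries labelled WT at both antisense loci and in 11 of the 13 genes.

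Genes around antisense RNA were described by lists. Of 1897 genes that the annotation already classes as antisense, 192 were tested, and 8 passed as higher and 1 as lower in the libraries labelled KO (4.69%, against 6.76% of all features), with a median log2 fold change of 0.07. Gm27247 rose to 5.88 ± 0.47 FPKM in the libraries labelled KO, against 1.92 ± 0.22 FPKM in those labelled WT (adjusted p = 0.00846, limma). Nr6a1os, antisense to the nuclear receptor gene Nr6a1, rose to 1.95 ± 0.13 FPKM in the libraries labelled KO, against 0.474 ± 0.026 FPKM in those labelled WT (adjusted p = 0.0216, limma). Gm12981 and 4933432K03Rik were also higher, at 2.09 ± 0.30 and 3.17 ± 0.55 FPKM in the libraries labelled KO, against 0.113 ± 0.165 and 0.613 ± 0.266 FPKM in those labelled WT (SD, n = 3 each; adjusted p = 0.0146 and 0.0197, limma). Nr6a1os, Gm12981 and 4933432K03Rik averaged under 1 FPKM where the label was WT. They reached the limit for testing through the libraries labelled KO, the group in which they are high. Leaving out 1 library lowered the 9 calls to 1 without KO 1, KO 2 or KO 3, to 3 without WT 1 and to 5 without WT 2 or WT 3.

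The genes that remove or bind such RNAs showed no called change. Of 27 tested genes of the RNA exosome, nuclear decay and transcription termination, 0 passed in limma and 4 had an unadjusted p under 0.05, against 6.76% and 24.5% of all features, with a median log2 fold change of 0.14, while limma-voom on estimated reads called 1. The exosome subunit Exosc1 averaged 9.57 ± 1.68 FPKM in the libraries labelled KO and 5.49 ± 2.04 FPKM in those labelled WT (SD, n = 3 each; adjusted p = 0.176, limma). The exosome cofactor C1d averaged 10.9 ± 1.36 FPKM in the libraries labelled KO and 7.20 ± 1.55 FPKM in those labelled WT (SD, n = 3 each; adjusted p = 0.141, limma). Of 23 tested genes that bind, edit, cut or sense double-stranded RNA, 0 passed in limma or limma-voom and 1 had an unadjusted p under 0.05, against the same 6.76% and 24.5%, with a median log2 fold change of -0.14. Oasl2, an interferon-induced gene of the oligoadenylate synthetase family, averaged 1.62 ± 0.33 FPKM in the libraries labelled KO and 2.53 ± 0.02 FPKM in those labelled WT (SD, n = 3 each; adjusted p = 0.165, limma). Ifih1, which encodes the double-stranded RNA sensor MDA5, had 1.57, 1.66 and 1.44 FPKM in the libraries labelled KO and 2.30, 3.25 and 1.98 FPKM in those labelled WT (adjusted p = 0.215, limma).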

How the data were processed

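The authors deposited 1 table, with FPKM for each isoform in each library. The authors also deposited a coverage signal, the mean read depth over each isoform with no scaling to library size, from which reads were estimated as coverage times length over the read length of 150 bases. Per the submitters' processing notes, the tools included StringTie, TopHat2, Bowtie2, cutadapt and FastQC, with no versions. Their build is not given in the sources here, and 95.9% of the reference transcripts had the same coordinates in GENCODE M21. Columns named NT were taken as those labelled WT, being the columns left over, in the order of their numbers, and 0 value columns were unused.

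The sense gene was the gene on the other strand with the largest overlap of span, and 233 of the 258 isoforms have the symbol that the authors' table gives. Antisense isoforms were summed per assembler locus and strand, other isoforms per gene symbol. limma 3.58.1 in R 4.3.3 was run on log2(FPKM + 1), with a trend of variance on mean, for features with a mean of at least 1 FPKM, and p was adjusted over all features tested. Fold changes on this scale understate those of low features. Library totals were compared with exact permutation tests (scipy 1.17.1). Tables used Python 3.11.15, pandas 2.3.3 and numpy 2.4.6. The procedure was tested on simulated data. Sequences come from the GENCODE M21 transcripts, and intervals for counting error were not computed.

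Named were the loci and isoforms called or with the 5 smallest p per direction, the 8 with the highest mean, the 6 with most exons among the isoforms tested, and up to 4 called genes of a list (2 where none was called). The members and lists were chosen with earlier results of these data known. The steady isoforms, the repeat genes, the sense genes that passed and the loci with most isoforms were chosen after their values were seen. Same-numbered libraries did not deviate together (correlations 0.0098, -0.0084 and 0.0564), so numbers were not treated as pairs. Alternatives were other pseudocounts, filters, scalings and thresholds, no trend, robust variance, a replicate block, limma-voom, each library left out, and unspliced or spliced isoforms alone. Other alternatives were added after seeing the data: leaving out the 8 highest isoforms, the authors' sense gene, and every setting for the repeat genes, sense genes and RNA lists.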

Additional observations from a re-analysis of the deposited data

How the results depend on the processing

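Antisense isoforms gave 0 calls in each of the 20 alternatives tried, and the ratio of summed antisense to summed sense FPKM kept its direction in all 11, from -0.648 to -0.0795 (log2, KO minus WT) with 1 library left out. The difference in share, -0.0474 percentage points, ranged from -0.118 to -0.0106 with 1 library left out. It turned to 0.00913 for unspliced isoforms alone and to 0.00177 as a share of covered bases. The difference in isoforms at 1 FPKM, -18.3, ranged from -28.8 to -1.33 with 1 library left out and turned to 2.67 for isoforms above 0 FPKM. The 2 calls among antisense loci became 0 with a pseudocount of 5, with no filter, with a replicate block, in limma-voom and for unspliced isoforms alone, 1 with a filter of 5 FPKM, 4 after rescaling every library to the same total, 4 at an adjusted p under 0.1, and 0 to 3 with 1 library left out, where the 1 call without KO 1 and 1 of the 2 without WT 3 were higher, not lower. The 9 calls among annotated antisense genes became 1 with a filter of 5 FPKM, 0 with a replicate block, 4 in limma-voom, 15 at an adjusted p under 0.1, and 1 to 5 with 1 library left out. The 17 calls among sense genes became 9 with no filter, 1 with a replicate block, 32 at an adjusted p under 0.1, and 4 to 18 with 1 library left out. The 2 satellite-like genes became 1 with a pseudocount of 5, 0 with no filter, with a replicate block and in limma-voom, 5 at an adjusted p under 0.1, and 0 to 6 with 1 library left out. The 0 calls among RNA exosome and decay genes became 1 in limma-voom and 0 to 1 with 1 library left out. The double-stranded RNA genes gave 0 calls under every alternative run. The cause of these changes was not tested.

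No named transcript changed direction: over the alternatives run, the call was as reported 313 times, gained 9 times and lost 17 times. Most of the 313 were transcripts not called that stayed so. All 17 losses fell on MSTRG.17106 and MSTRG.27606, the only named loci called. Both lost the call with a pseudocount of 5, no filter, a replicate block, limma-voom, and without KO 1, KO 2 or KO 3. MSTRG.27606 also lost it with no trend of variance on mean. The count of called loci stayed at 2 there because MSTRG.20774 was called in its place. The 9 gains were at MSTRG.14794 and MSTRG.20774, in part through the looser threshold of 0.1. A 250-base transcript with 3 reads has 0.331 to 0.423 FPKM and lower values rest on fewer reads than that. Samples of 3 per group were not searched for outlying libraries.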
